A study of Homo sapiens with 10 samples.

Results

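Interferon-stimulated genes are the genes that cells switch on when interferon binds its receptors. The set described here holds 49 of them, interferon-induced effectors and their STAT and IRF regulators, chosen by gene symbol from a written list. All 49 were found among the 57993 symbols of the deposited tables, and 42 were high enough to be tested. They were followed in 10 libraries of HCT116 cells, a human colorectal carcinoma line. Of these, 8 libraries came from an HCT116 line labelled KDM5A-/-, which received a plasmid for mutant KDM5A (2 libraries), a plasmid for wild-type KDM5A (3) or an empty vector (3), and 2 libraries came from parental HCT116 cells with empty vector. KDM5A is a histone demethylase that acts on methylated lysine 4 of histone H3. All cells were sorted for GFP 24 hours after transfection. The labels do not name the mutation, and the knockout line, bought from a supplier, was grown in G418 while the parental cells were not, so that genotype, clone and G418 cannot be told apart.

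Type I and type III interferons bind cell-surface receptors whose attached kinases, JAK1 and TYK2, phosphorylate STAT proteins, STAT2 among them. These join IRF9 to form a complex that binds the interferon-stimulated response element, a short DNA motif in front of most of these genes. The proteins made cut, edit, bind or stall viral RNA, block the entry of viruses and tag other proteins, and epithelial cells, from which this line derives, can mount the response on their own.

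A response element was searched as TTTC, any 2 bases and TTTC again, or the same on the other strand (GAAA, any 2 bases, GAAA), in the RefSeq promoter windows of GRCh38.p14, each running from 250 bases before a start site to 50 after it. Of the 42 members with a window, 26 (61.9%) held a match in at least 1 window, against 1195 of the 27305 symbols with a window (4.38%). The other 7 members, MX2, OAS2, IFIT2, USP18, IFITM2, IRF7 and OASL, had no entry in that table. A match is a description of these letters and not a measured binding site. The 170 bases before the start site are shown for the members with a window whose RNA passed with both KDM5A plasmids by the widest margin, for IFIT5, a neighbour whose RNA passed with neither, and for SAMD9, which stood highest above its parental level in the knockout cells. Capitals mark the matches, which overlap in ISG15, and each sequence is read 5′ to 3′ on the gene's own strand.
IFI6, chr1:27672193-27672362, minus strand: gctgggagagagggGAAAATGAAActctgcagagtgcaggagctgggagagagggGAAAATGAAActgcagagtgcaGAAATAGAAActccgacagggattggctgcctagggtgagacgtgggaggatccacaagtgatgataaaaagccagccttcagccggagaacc
IFIT1, chr10:89392453-89392622, plus strand: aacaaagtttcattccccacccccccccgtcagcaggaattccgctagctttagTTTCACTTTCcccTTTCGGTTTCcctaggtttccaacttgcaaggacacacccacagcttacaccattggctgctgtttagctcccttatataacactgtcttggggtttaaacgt
IFIT3, chr10:89327827-89327996, plus strand: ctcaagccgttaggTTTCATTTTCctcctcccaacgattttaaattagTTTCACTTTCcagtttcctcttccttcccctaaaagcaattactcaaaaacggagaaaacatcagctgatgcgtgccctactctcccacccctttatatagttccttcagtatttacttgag
ISG15, chr1:1013327-1013496, plus strand: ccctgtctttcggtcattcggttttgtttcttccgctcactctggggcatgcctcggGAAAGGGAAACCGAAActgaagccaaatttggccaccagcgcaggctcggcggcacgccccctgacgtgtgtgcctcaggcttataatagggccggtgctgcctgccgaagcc
IFIT5, chr10:89414398-89414567, plus strand: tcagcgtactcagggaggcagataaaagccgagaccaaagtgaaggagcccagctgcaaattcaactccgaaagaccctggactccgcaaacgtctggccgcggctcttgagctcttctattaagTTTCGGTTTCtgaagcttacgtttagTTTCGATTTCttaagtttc
SAMD9, chr7:93117980-93118149, minus strand: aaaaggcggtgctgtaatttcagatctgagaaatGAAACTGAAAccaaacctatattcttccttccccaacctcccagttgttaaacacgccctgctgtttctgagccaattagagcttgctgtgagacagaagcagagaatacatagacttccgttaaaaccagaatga
In these stretches IFI6 carried 3 matches, with first bases at -156, -115 and -93 from its start site. IFIT1, IFIT3 and ISG15 carried 2 each and SAMD9 carried 1. IFIT5 carried 2 in the stretch shown and 1 more across its start site. The RefSeq start site of ISG15 lies 12360 bases inside the deposited locus of that name.

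The deposited values are log2 FPKM, a level corrected for gene length and library total, which were turned back to the linear scale and scaled between libraries. Levels below are scaled FPKM and can be compared between genes. Fold changes are differences in log2(scaled FPKM + 1), which understate the change of low genes. They were tested with limma over 17779 genes, with Benjamini-Hochberg adjustment, and the threshold was an adjusted p of 0.05. The tables hold no read counts, so the depth behind each value is unknown. The labels do not say whether libraries of 1 group are separate cultures, so each p-value covers the spread of these samples alone, and that spread may be technical. KDM5A itself stood at 23346 and 22816 in the mutant libraries, 13452, 16237 and 15598 in the wild-type libraries, 12.2, 15.3 and 12.3 in the empty-vector knockout libraries and 13.3 and 17.7 in the parental libraries, so its RNA summed over the whole gene checks the plasmid labels but cannot check the knockout label. The 2 mutant libraries and parental library 2 had a higher share of ribosomal protein RNA, 15.5% to 16.2% of the total, against 12.6% to 13.9% in the other 7.

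With the mutant plasmid, about as many interferon-stimulated genes rose as did not pass, and on the scaled values none fell. Of the 42 tested members, 22 were higher than with empty vector and 0 lower, or 52.4%, where 16.5% of all genes tested passed, 9.48% of them higher and 7.05% lower. The median log2 fold change was 0.42 over the tested members and -0.01 over all genes. The mutant and empty-vector libraries did not overlap in 31 members, all higher with the mutant plasmid, where 23.3% of all genes were higher and 23.6% lower without overlap. OAS2 is among the 31. It was high enough to be tested through the mutant libraries alone, so it had to lie higher there. In bulk RNA of sorted cells, a larger share of responding cells and more RNA per cell cannot be told apart. The mutant libraries are the ones of higher ribosomal protein share, and with that share as a covariate 1 member, ISG15, passed (0.0844% of all genes), while the median of the members was 0.49. IFI6, IFIT1, IFIT2, IFIT3, IFITM3, ISG15 and OASL passed whichever library was left out, and the other 15 lost their call without at least 1. The count was 10 without mutant library 1, 14 without empty-vector library 2 and 11 without empty-vector library 3, where 6.83%, 8.23% and 7.64% of all genes passed in that order. On the values as deposited the median was 0.08 over the members and -0.30 over all genes, of which 37.1% passed and 2.57% were higher. There 8 members were higher and 2, ADAR (-0.40) and IFIT5 (-0.38), were lower, and 12 of the 41 tested had a negative value.

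The wild-type plasmid gave a count of the same size. Of the 42 tested members, 21 were higher than with empty vector and 0 lower, or 50.0%, where 4.54% of all genes passed, 2.52% higher and 2.02% lower. The median was 0.42 over the members and 0.00 over all genes, and 33 members were higher without overlap between the groups, where 16.4% of all genes were higher and 16.2% lower. The wild-type and empty-vector libraries had similar ribosomal protein shares, 13.04% to 13.6% and 12.6% to 13.4%. With that share as a covariate 18 members passed, where 4.26% of all genes did. IFI6, IFIT1, IFIT2, IFIT3, ISG15 and IRF7 passed whichever library was left out, and the other 15 lost their call without at least 1. The count was 6, 6 and 7 without wild-type library 1, 2 and 3, and 10, 9 and 8 without empty-vector library 1, 2 and 3, and each of those counts held members higher with the plasmid and none lower. In those 6 fits the share of all genes that passed was 1.0% to 1.75%, and the median of the members was 0.42 to 0.48. Both plasmids are set against the same 3 empty-vector libraries, so the 2 comparisons are not independent. The plot of fold changes with both plasmids gives each tested member.

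**Figure D1:**
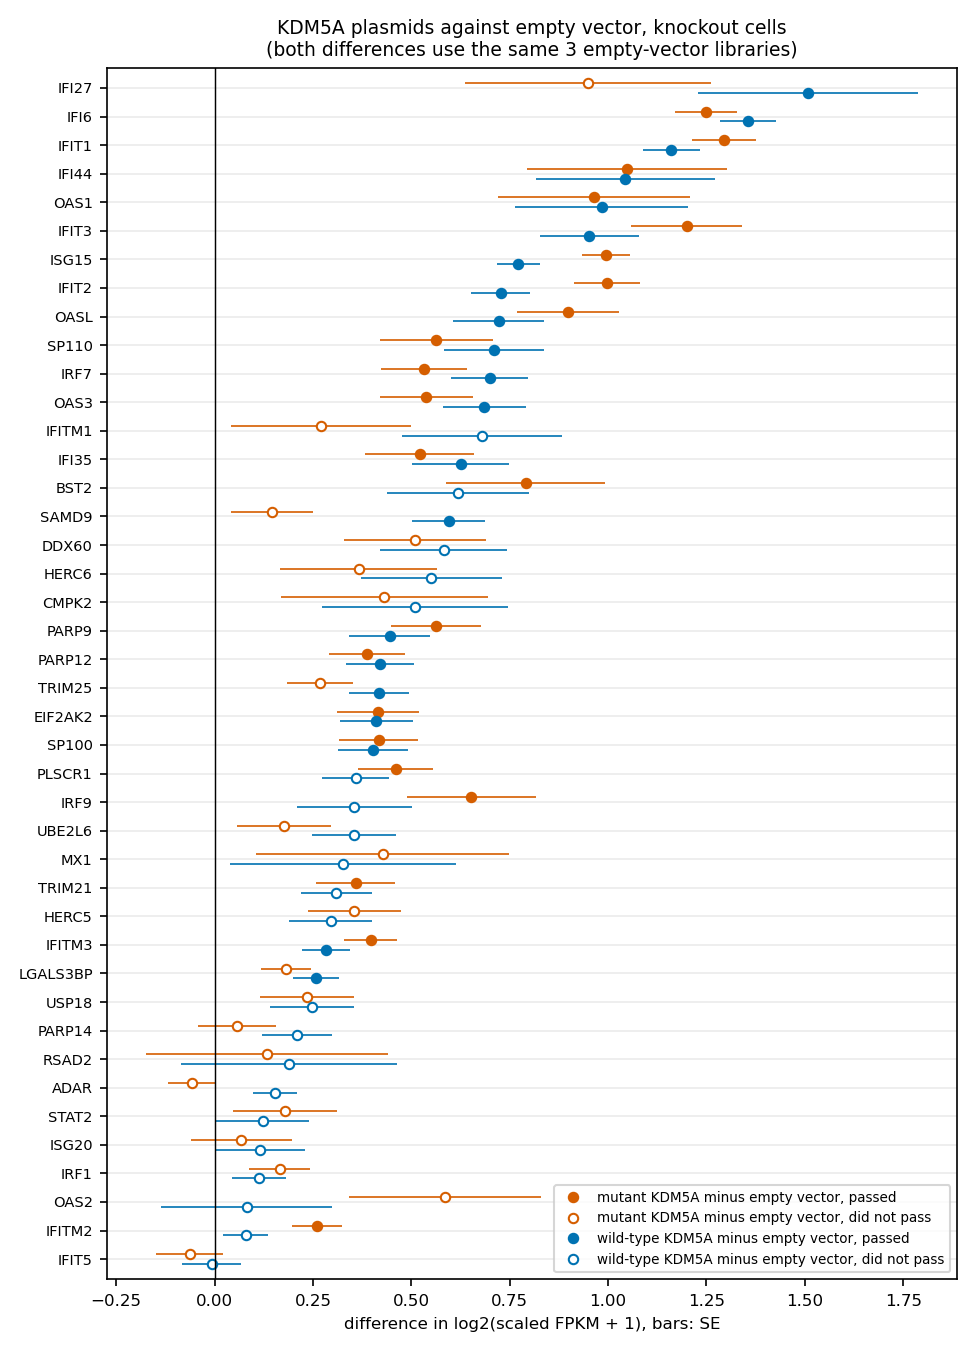
Difference in log2(scaled FPKM + 1) from empty vector in knockout cells for the 42 tested members, with mutant KDM5A (orange, upper) and wild-type KDM5A (blue, lower); bars are SE, and filled points passed at an adjusted p under 0.05. Nearly all points lie right of 0, and those furthest right include IFI27, IFI6 and IFIT1, while IFIT5 lies at 0.

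Of the 4 transcription factors in the set, IRF7 stood higher with both plasmids and IRF9 with the mutant one. IRF7, a factor that drives interferon production and is itself interferon-induced (chromosome 11, 612552 to 615999, minus strand, GRCh38 as for all coordinates here), had 25.9 and 22.4 scaled FPKM with the mutant plasmid, 27, 30.5 and 24.2 with the wild-type plasmid, 15.7, 17.7 and 15.6 in empty-vector knockout cells and 21.9 and 20.8 in parental cells. Every plasmid library lay above every empty-vector knockout library. The mutant plasmid gave a log2 fold change of 0.53, SE 0.11, adjusted p = 0.0143 and the wild-type plasmid a log2 fold change of 0.70, SE 0.10, adjusted p = 0.0079. The wild-type call held whichever library was left out, whereas the mutant call was lost without mutant library 1 or empty-vector library 3 (adjusted p up to 0.0876). IRF9, the DNA-binding partner of the STAT proteins, had 43.5 and 33.2 scaled FPKM with the mutant plasmid, 35.4, 26.4 and 31.1 with the wild-type plasmid, 27.7, 20.3 and 24 with empty vector and 26.1 and 29.1 in parental cells, summed over 2 overlapping loci of that symbol. Mutant values lay above all empty-vector knockout values and wild-type values overlapped them. IRF9 passed with the mutant plasmid (log2 fold change 0.65, SE 0.16, adjusted p = 0.0283) and not with the wild-type plasmid (log2 fold change 0.36, SE 0.15, adjusted p = 0.212). Without mutant library 1 or empty-vector library 2 or 3 its call was lost, with log2 fold changes from 0.46 to 0.84 and an adjusted p up to 0.169 over all libraries left out in turn.

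STAT2 and IRF1 did not pass with either plasmid. STAT2, the STAT protein specific to type I and III signalling, had 25.3 and 36.9 scaled FPKM with the mutant plasmid, 28.1, 31 and 29 with the wild-type plasmid, 27.6, 27.2 and 25.9 with empty vector and 31.3 and 34 in parental cells. Its log2 fold change was 0.18 with mutant (SE 0.13, adjusted p = 0.39) and 0.12 with wild-type KDM5A (SE 0.12, adjusted p = 0.631). Mutant library 1 lay below all empty-vector knockout libraries and mutant library 2 above them. IRF1, a factor best known from the response to interferon gamma, had 39 and 38.8 with the mutant plasmid, 35.8, 38.8 and 37.9 with the wild-type plasmid, 32.9, 33.8 and 37.1 with empty vector and 26.7 and 23.6 in parental cells. The mutant libraries lay above the empty-vector knockout ones and the wild-type libraries overlapped them. Its log2 fold changes were 0.16 (adjusted p = 0.177) with the mutant plasmid, which was -0.17 on the values as deposited, and 0.11 (adjusted p = 0.406) with the wild-type plasmid.

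ISG15 carried the smallest adjusted p of any member with the mutant plasmid and was among the highest in level. It is a ubiquitin-like protein that is joined to newly made proteins (chromosome 1, 1001137 to 1014541, plus strand). ISG15 had 575 and 561 scaled FPKM in mutant libraries, 470.1, 503 and 487 in wild-type libraries, 299, 273 and 281 in empty-vector knockout libraries and 292 and 319 in parental libraries. The 2 sets of plasmid libraries lay apart from all 5 empty-vector ones, with the mutant libraries highest. The means were 568 ± 9.77 (SD, n = 2) with the mutant plasmid, 487 ± 16.4 (SD, n = 3) in the wild-type libraries and 285 ± 13.3 (SD, n = 3) with empty vector. The mutant plasmid gave a log2 fold change of 0.99, SE 0.06, adjusted p = 9.57e-05, and the wild-type plasmid a log2 fold change of 0.77, SE 0.05, adjusted p = 0.000192. The other 4 genes of the system did not pass with either plasmid. They are the conjugating enzyme UBE2L6, the ligase HERC5, its relative HERC6, the ISG15 ligase of mouse, and USP18, which removes ISG15 and damps the receptor. Their log2 fold changes with the mutant plasmid were 0.18, 0.36, 0.37 and 0.23 in that order. With the wild-type plasmid they were 0.35, 0.29, 0.55 and 0.25. HERC6 was among the largest differences that did not pass with wild-type KDM5A (adjusted p = 0.123), with 8.76, 6.61 and 9.14 scaled FPKM against 5.21, 6.07 and 4.46 with empty vector, which do not overlap.

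The IFIT genes, some of whose proteins bind viral RNA with foreign ends, split into 3 that rose with both plasmids and 1 that did not. IFIT1 (chromosome 10, 89392545 to 89406486, plus strand) had 27.2 and 25.6 scaled FPKM with the mutant plasmid, 24, 24.4 and 23.4 with the wild-type plasmid, 11, 9.99 and 9.49 in empty-vector knockout cells and 8.98 and 8.85 in parental cells. The plasmid libraries lay well above all the others, with no overlap. IFIT1 reached 2.59 times the mean of empty-vector knockout cells with the mutant (log2 fold change 1.3, SE 0.08, adjusted p = 0.000106) and 2.35 times with wild-type KDM5A (log2 fold change 1.16, SE 0.07, adjusted p = 9.64e-05). IFIT2 (chromosome 10, 89301954 to 89309276, plus strand), whose protein pairs with that of IFIT3, had 23.3 and 21.2 with the mutant plasmid, 18.1, 18.7 and 17.9 with the wild-type plasmid, 10.8, 9.89 and 11.2 with empty vector and 6.23 and 5.98 in parental cells. Its 4 groups formed 4 separate steps. It passed with the mutant (log2 fold change 1.0, SE 0.08, adjusted p = 0.000552) and with the wild-type plasmid (log2 fold change 0.73, SE 0.08, adjusted p = 0.00197). IFIT3 (chromosome 10, 89327893 to 89340971, plus strand), which stabilises IFIT1, had 10.9 and 10.7 scaled FPKM with the mutant plasmid, 8.91, 8.26 and 9.62 with the wild-type plasmid, 4.62, 4.42 and 3.42 with empty vector and 3.29 and 4.12 in parental cells. Here too the plasmid libraries stood clear of the rest, while empty-vector knockout and parental values overlapped. IFIT3 gave a log2 fold change of 1.2, SE 0.14, adjusted p = 0.00216 with the mutant and a log2 fold change of 0.95, SE 0.13, adjusted p = 0.00631 with the wild-type plasmid.

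IFIT5 (chromosome 10, 89414585 to 89421001, plus strand), which binds RNA with triphosphate ends, had 13.2 and 11.5 scaled FPKM with the mutant plasmid, 13.2, 12.4 and 12.8 with the wild-type plasmid, 13.1, 12.4 and 13.1 with empty vector and 14 and 13.3 in parental cells. The 3 groups of knockout cells overlapped, and parental values lay just above the empty-vector knockout ones. Its log2 fold change was -0.06 with the mutant plasmid (95% interval -0.25 to 0.13) and -0.01 with the wild-type plasmid (-0.18 to 0.16), although its window held 3 response element matches. IFIT1, IFIT2 and IFIT3 lie within the span of LIPA, a lysosomal lipase gene on the opposite strand, and the strand setting of the counting is not given in the sources used here, so reads of LIPA could be among theirs. LIPA had 34.9 and 30.3 scaled FPKM with the mutant plasmid, 30.5, 32.3 and 30.0 with wild-type KDM5A and 26.8, 27.6 and 24.6 with empty vector, with log2 fold changes of 0.29 (adjusted p = 0.0457) and 0.22 (adjusted p = 0.142). Its part in the IFIT values was not tested.

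**Figure D2:**
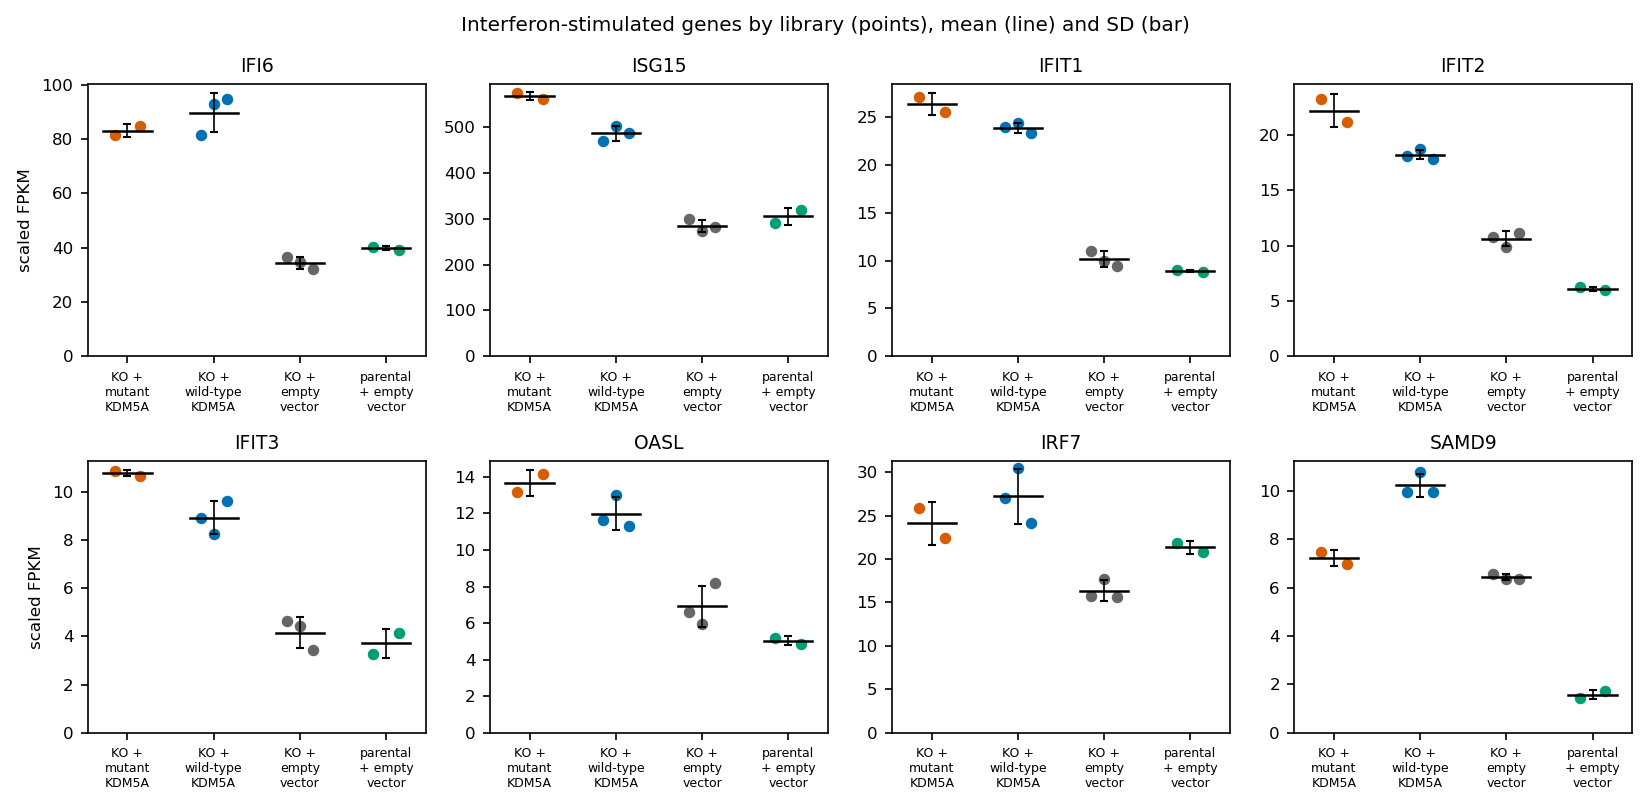
Scaled FPKM of 8 members in each library (points), with the group mean (line) and SD (bar), for knockout (KO) cells with mutant KDM5A (n = 2), wild-type KDM5A (n = 3) or empty vector (n = 3) and parental cells with empty vector (n = 2); axes start at 0. In IFI6, ISG15, IFIT1, IFIT2, IFIT3, OASL and IRF7 every plasmid library lies above every empty-vector knockout library, and SAMD9 is low in parental cells alone.

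The oligoadenylate synthetases make the messenger that activates RNase L. OASL, a family member without that activity, had 13.2 and 14.2 scaled FPKM with the mutant plasmid, 11.6, 13 and 11.3 with the wild-type plasmid, 6.63, 5.94 and 8.17 with empty vector and 5.2 and 4.87 in parental cells. Plasmid libraries lay above all the others. It passed with the mutant (log2 fold change 0.90, SE 0.13, adjusted p = 0.00527) and the wild-type plasmid (log2 fold change 0.72, SE 0.12, adjusted p = 0.0134), the wild-type call being lost without wild-type library 1 or 2 or empty-vector library 1 or 2 (adjusted p up to 0.0667). OAS3 had 50.9 and 37.9 with the mutant plasmid, 48.3, 48.7 and 49.3 with the wild-type plasmid, 27.1, 31.8 and 31 with empty vector and 22.6 and 20.7 in parental cells. The 2 mutant libraries differed more between themselves than the 3 wild-type libraries did, and all 5 lay above the empty-vector libraries. OAS3 gave a log2 fold change of 0.54, SE 0.12, adjusted p = 0.0179 with the mutant, lost without mutant library 1 (adjusted p = 0.086), and a log2 fold change of 0.69, SE 0.11, adjusted p = 0.0115 with the wild-type plasmid, lost without any 1 of the wild-type libraries (adjusted p up to 0.0551).

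OAS1 and OAS2 were low. OAS1 had 3.55 and 3.3 with the mutant plasmid, 3.88, 2.94 and 3.67 with wild-type KDM5A and 0.709, 2.05 and 1.23 with empty vector, and its log2 fold changes of 0.96 (adjusted p = 0.0295) and 0.98 (adjusted p = 0.0404) passed. OAS2 reached 1 scaled FPKM in the mutant libraries only. It had 1.12 and 1.18 there, 0.798, 0.501 and 0.29 in the wild-type libraries, 0.758, 0.421 and 0.177 with empty vector and 0.297 and 0.336 in parental cells, and did not pass with the mutant (log2 fold change 0.59, SE 0.24, adjusted p = 0.134). A member kept by the filter through 1 group had to lie higher there, which limits what OAS2 shows, and RSAD2 was likewise kept by plasmid libraries alone.

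Of the remaining RNA-binding effectors, EIF2AK2, the kinase PKR that stops translation, rose with both plasmids. It had 37.3 and 34.6 scaled FPKM with the mutant plasmid, 33.3, 36.9 and 37.4 with wild-type KDM5A and 25.8, 25.8 and 28.6 with empty vector, with log2 fold changes of 0.42 (adjusted p = 0.028) and 0.41 (adjusted p = 0.0424). DDX60, a helicase of the response, was among the largest differences that did not pass. It had 7.04 and 5.64 with the mutant plasmid, 6.08, 5.89 and 8.3 with wild-type KDM5A and 4.33, 3.84 and 4.23 with empty vector, where the plasmid libraries lay above but spread widely (log2 fold change 0.51, SE 0.18, adjusted p = 0.0856 with the mutant and 0.58, SE 0.16, adjusted p = 0.0797 with the wild-type plasmid). ADAR, which edits adenosine to inosine, and ISG20, an exonuclease, did not pass, with -0.06 and 0.07 for the mutant and 0.15 and 0.12 for the wild-type plasmid. Across the 12 RNA-binding effectors, 7 passed upward with each plasmid, where 9.48% (mutant) and 2.52% (wild-type) of all genes were higher.

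IFI6 had the smallest adjusted p of any member with the wild-type plasmid. It encodes a membrane protein that inhibits apoptosis and the replication of flaviviruses (chromosome 1, 27666060 to 27672218, minus strand). IFI6 had 81.6 and 84.8 scaled FPKM with the mutant plasmid, 81.7, 93.1 and 94.7 with the wild-type plasmid, 36.5, 34.9 and 32.1 with empty vector and 40.3 and 39.3 in parental cells. All 5 plasmid libraries lay above every empty-vector library of either line. The means were 83.2 ± 2.3 (SD, n = 2) with the mutant plasmid, 89.8 ± 7.08 (SD, n = 3) in the wild-type libraries and 34.5 ± 2.22 (SD, n = 3) in empty-vector knockout cells. That is 2.41 times with the mutant (log2 fold change 1.25, SE 0.08, adjusted p = 0.000109) and 2.6 times with the wild-type plasmid (log2 fold change 1.35, SE 0.07, adjusted p = 3.43e-05). IFI27, a mitochondrial relative, had 18 and 7.48 with the mutant plasmid, 15.5, 18.9 and 19 with the wild-type plasmid, 6.42, 6.77 and 3.95 with empty vector and 6.35 and 6.73 in parental cells. Mutant library 2 lay just above the empty-vector knockout values, and the other plasmid libraries lay above them. IFI27 passed with the wild-type plasmid (log2 fold change 1.51, SE 0.28, adjusted p = 0.0217) and not with the mutant (log2 fold change 0.95, SE 0.31, adjusted p = 0.0692), where the log2 fold change was 1.53 without mutant library 2, which passed (adjusted p = 0.0131), and 0.37 without mutant library 1. The wild-type call was lost without any 1 of the wild-type or empty-vector libraries (adjusted p up to 0.0873), with log2 fold changes from 1.3 to 1.63.

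Among the 5 members that act at membranes, 4 passed with the mutant and 1 with the wild-type plasmid. Of all genes, 9.48% were higher with the mutant and 2.52% with the wild-type plasmid. Between the plasmids 0 of the 5 passed, so these counts are not read as a difference between them. IFITM3, which blocks the fusion of viruses in endosomes, was the highest member in level, at 647 and 728 scaled FPKM with the mutant plasmid, 624, 632 and 646 with the wild-type plasmid, 520.1, 529.5 and 514 with empty vector and 639 and 719.8 in parental cells. The plasmid libraries lay above the empty-vector knockout libraries and near the parental ones. IFITM3 passed with the mutant plasmid (log2 fold change 0.40, SE 0.07, adjusted p = 0.00824), a value that was -0.06 after quantile normalization, and with the wild-type plasmid (log2 fold change 0.28, adjusted p = 0.0363). IFITM2 had 194 and 219 with the mutant plasmid, 184, 175 and 186 with the wild-type plasmid, 177, 172 and 168 with empty vector and 225 and 239 in parental cells. It passed with the mutant plasmid (log2 fold change 0.26, adjusted p = 0.0262), with a value of -0.08 on the values as deposited, and not with the wild-type plasmid (0.08, adjusted p = 0.493). IFITM1 had 1.85 and 2.25 with the mutant plasmid, 2.83, 2.47 and 3.96 with the wild-type plasmid, 1.11, 2.28 and 1.32 with empty vector and 3.32 and 3.51 in parental cells, and did not pass with the wild-type plasmid (log2 fold change 0.68, SE 0.20, adjusted p = 0.0999). The IFITM genes are near-identical neighbours and the loci of IFITM1 and IFITM2 overlap on 1 strand, so the split of reads between them is uncertain.

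PLSCR1, a phospholipid scramblase, had 37.9 and 44 scaled FPKM with the mutant plasmid, 37.1, 37.6 and 39.2 with the wild-type plasmid, 31, 29.7 and 27.6 with empty vector and 32.2 and 26.9 in parental cells. It passed with the mutant plasmid (log2 fold change 0.46, SE 0.10, adjusted p = 0.0145), a call lost without mutant library 2 or empty-vector library 3 (adjusted p up to 0.0652). With the wild-type plasmid it lay at the threshold and did not pass (log2 fold change 0.36, SE 0.09), although the groups did not overlap. BST2, the tether that holds budding virions, had 5.0 and 3.53 with the mutant plasmid, 3.08, 4.08 and 3.78 with the wild-type plasmid, 2.22, 1.82 and 2.0 with empty vector and 3.6 and 2.2 in parental cells. BST2 passed with the mutant (log2 fold change 0.79, adjusted p = 0.0304) and not with the wild-type plasmid (log2 fold change 0.62, SE 0.18, adjusted p = 0.0923), while both sets of plasmid libraries lay above the empty-vector knockout ones.

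SAMD9, a cytoplasmic protein that restricts poxviruses and cell growth (chromosome 7, 93099512 to 93118023, minus strand), was lowest in parental cells. SAMD9 had 7.47 and 6.99 scaled FPKM with the mutant plasmid, 9.96, 10.8 and 9.98 with the wild-type plasmid, 6.59, 6.37 and 6.36 with empty vector and 1.44 and 1.72 in parental cells. No 2 of these groups overlapped. It passed with the wild-type plasmid (log2 fold change 0.59, SE 0.09, adjusted p = 0.0122) and not with the mutant (log2 fold change 0.15, SE 0.10, adjusted p = 0.376), and the wild-type call was lost without any 1 wild-type library or empty-vector library 2 or 3 (adjusted p up to 0.0668). The other tested members of its role group did not pass with either plasmid. These were MX1, a GTPase that traps viral nucleocapsids (0.43 with the mutant and 0.33 with the wild-type plasmid), RSAD2, the radical enzyme viperin (0.13 and 0.19 in that order), and CMPK2, a mitochondrial nucleotide kinase. CMPK2 had 3.33 and 1.58 scaled FPKM with the mutant plasmid, 3.07, 1.81 and 2.85 with wild-type KDM5A and 1.34, 1.94 and 1.22 with empty vector. Its values with each plasmid overlap those with empty vector. The log2 fold change was 0.43 with the mutant (SE 0.26, adjusted p = 0.295) and 0.51 with the wild-type plasmid (adjusted p = 0.264). RSAD2 and CMPK2 overlap on opposite strands, so their reads could be shared.

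The nuclear body proteins SP100 and SP110 passed with both plasmids. SP110 had 12.9 and 12.4 scaled FPKM with the mutant plasmid, 14.7, 13 and 14.6 with the wild-type plasmid, 6.91, 10.3 and 7.81 with empty vector and 7.77 and 7.42 in parental cells. Its log2 fold changes were 0.56 (adjusted p = 0.029) with mutant and 0.71 (SE 0.13, adjusted p = 0.0196) with wild-type KDM5A, the first lost without either mutant library or empty-vector library 1 or 3 (adjusted p up to 0.119) and the second without any 1 wild-type library or empty-vector library 1 or 3 (adjusted p up to 0.0827). The plasmid libraries lay above all empty-vector libraries. Among the ADP-ribosyltransferases, PARP9, a partner of the ligase DTX3L in interferon signalling, had 12 and 12.3 with the mutant plasmid, 10.6, 10.1 and 12.8 with the wild-type plasmid, 8.29, 7.39 and 8.07 with empty vector and 10.4 and 9.16 in parental cells. It passed with the mutant (log2 fold change 0.56, SE 0.11, adjusted p = 0.014), a call lost without mutant library 1 (adjusted p = 0.0597), and with wild-type KDM5A (log2 fold change 0.44, adjusted p = 0.0462), lost without any 1 of the 8 knockout libraries (adjusted p up to 0.151). PARP9 and DTX3L overlap on opposite strands. PARP12 passed with both plasmids as well (0.39 with mutant and 0.42 with wild-type KDM5A), and PARP14 with neither.

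The remaining members were the TRIM ubiquitin ligases, the cytoplasmic proteins IFI35 and IFI44 and the secreted proteins. TRIM21, the cytosolic antibody receptor, passed with the mutant plasmid (0.36, adjusted p = 0.0421) and TRIM25, which ubiquitinates the sensor RIG-I, with the wild-type plasmid (0.42, adjusted p = 0.020). TRIM21 was 0.31 with the wild-type plasmid (adjusted p = 0.0924) and TRIM25 0.27 with the mutant (adjusted p = 0.0607). The TRIM21 call was lost without any 1 wild-type library or empty-vector library 2 or 3, among others. The TRIM25 call was lost without any 1 wild-type or empty-vector knockout library. The interferon-induced proteins IFI44 and IFI35 passed with both plasmids, IFI44 at 3.53 and 4.22 scaled FPKM with the mutant plasmid, 4.01, 3.95 and 3.59 with wild-type KDM5A and 2.23, 1.44 and 0.649 with empty vector. IFI35 had a log2 fold change of 0.52 with the mutant and 0.62 with the wild-type plasmid, the first of which was -0.11 with ribosomal protein share as a covariate. The secreted glycoprotein LGALS3BP passed with the wild-type plasmid (0.26, adjusted p = 0.0406). The 7 members that were not tested, IFI44L, IFI16, MX2, XAF1, SAMD9L, CXCL10 and CXCL11, did not exceed 0.849 scaled FPKM in any library. CXCL11, a chemokine that draws activated T cells, is listed at 0.424 and 0.378 in mutant libraries, 0.212, 0.162 and 0.22 in wild-type libraries and 0 in all 5 empty-vector libraries. Of the others, IFI44L, IFI16 and MX2 were highest in a plasmid library. XAF1, SAMD9L and CXCL10 were highest in an empty-vector knockout library.

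Members with and without a response element match had close median fold changes. With the mutant plasmid, the median was 0.42 over the 24 tested members with a match, 13 of which were higher, and 0.39 over the 12 with a window and no match, 5 of which were higher. With the wild-type plasmid the medians were 0.43 and 0.41, with 13 of 24 and 5 of 12 higher. The map of matches beside the fold changes shows members with several matches at both ends of the range.

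**Figure D3:**
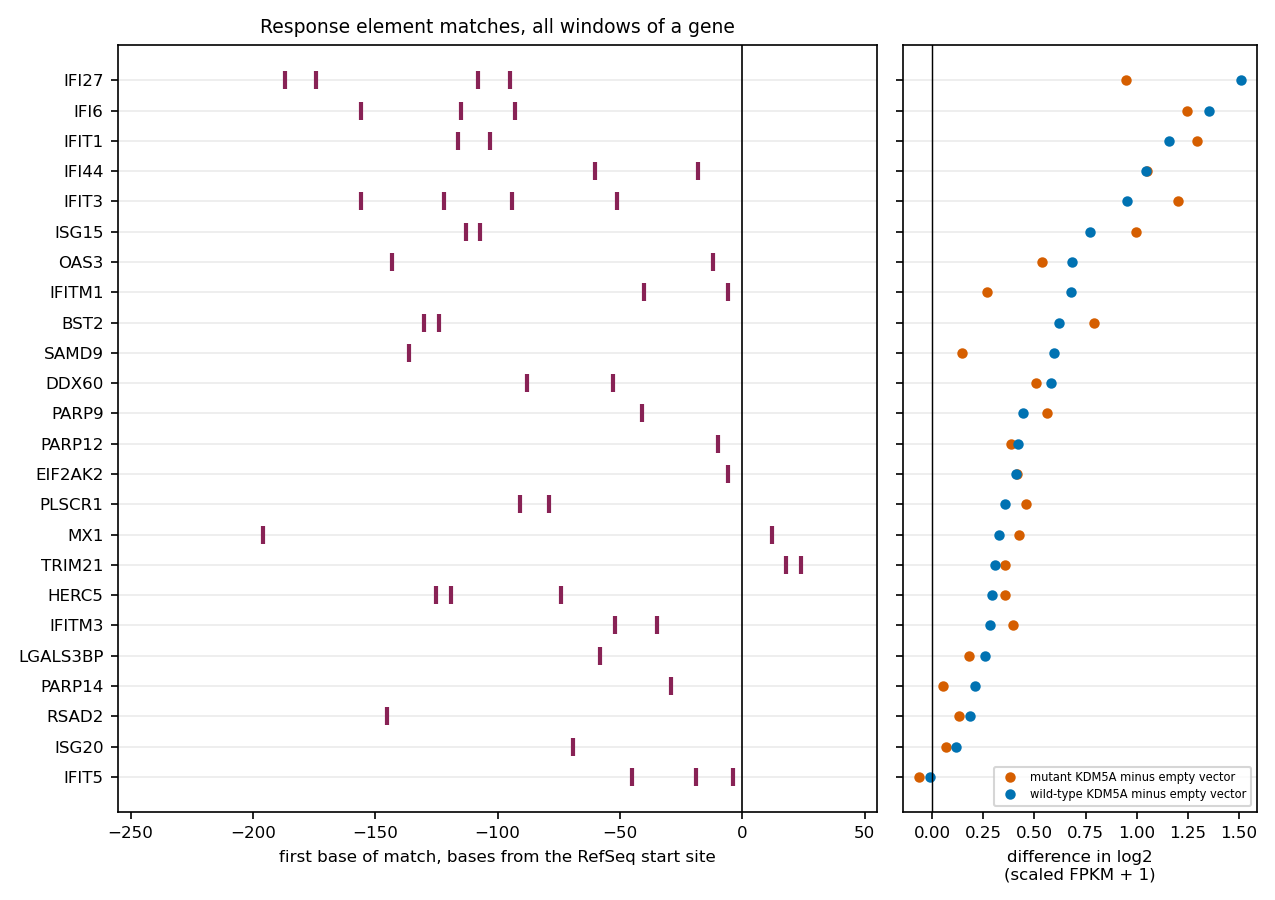
Left, first base of each response element match relative to the RefSeq start site (vertical line) for the 24 tested members with a match, over all their windows, so that 1 match can appear at 2 distances; right, their log2 differences from empty vector with mutant (orange) and wild-type KDM5A (blue). Members are ordered by the wild-type difference, from IFI27 at the top to IFIT5 at the bottom, whose 3 matches lie within 45 bases of the start site.

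Between the plasmids, no member passed the test. Of the 42 tested, 0 differed by limma with Benjamini-Hochberg adjustment, where 0.0562% of all genes did (0.0337% higher and 0.0225% lower). An unadjusted p under 0.05 was reached by 5. The share of all genes at that cut was not computed, so this count is not read as a difference. The median log2 fold change, mutant minus wild-type, was -0.02. The libraries did not overlap in 8 members that were higher and 5 that were lower with the mutant plasmid, where 19.5% of all genes were higher and 19.4% lower. The largest differences were those of IFI27 (-0.56, 95% interval -1.27 to 0.15), OAS2 (0.50, -0.05 to 1.05), SAMD9 (-0.45, -0.69 to -0.21) and IFITM1 (-0.41, -0.93 to 0.11), with adjusted p of 0.349, 0.284, 0.0937 and 0.349 in that order. OAS2 was kept by the filter through the mutant libraries alone and so had to lie higher there. It is among the 8 members that were higher without overlap. The value of IFI27 rested on mutant library 2, since it was 0.02 without that library and -1.14 without mutant library 1. Both mutant libraries lay below all wild-type libraries for SAMD9. It passed when parental library 1 or parental library 2 was left out of the fit, as did ISG15 (0.22, higher with the mutant), but in those fits 5.46% of all genes passed, a share near that of 2 in 42 members. Among the strongest responders, the intervals were -0.29 to 0.07 for IFI6 and -0.05 to 0.32 for IFIT1, so larger differences lie outside their 95% intervals. The unadjusted intervals of ISG15 (0.22, adjusted p = 0.109) and IFIT2 (0.27, adjusted p = 0.134) lay above 0, although neither gene passed.

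The regulators did not differ between the plasmids beyond their spread. Mutant minus wild-type was 0.06 for STAT2 (-0.24 to 0.36), 0.05 for IRF1 (-0.12 to 0.23), -0.17 for IRF7 (-0.41 to 0.08) and 0.30 for IRF9 (-0.07 to 0.67), with 95% intervals in parentheses. A p that misses the threshold does not show that the plasmids act alike. KDM5A RNA stood higher with the mutant than with the wild-type plasmid, and its part in these values was not tested.

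**Figure D4:**
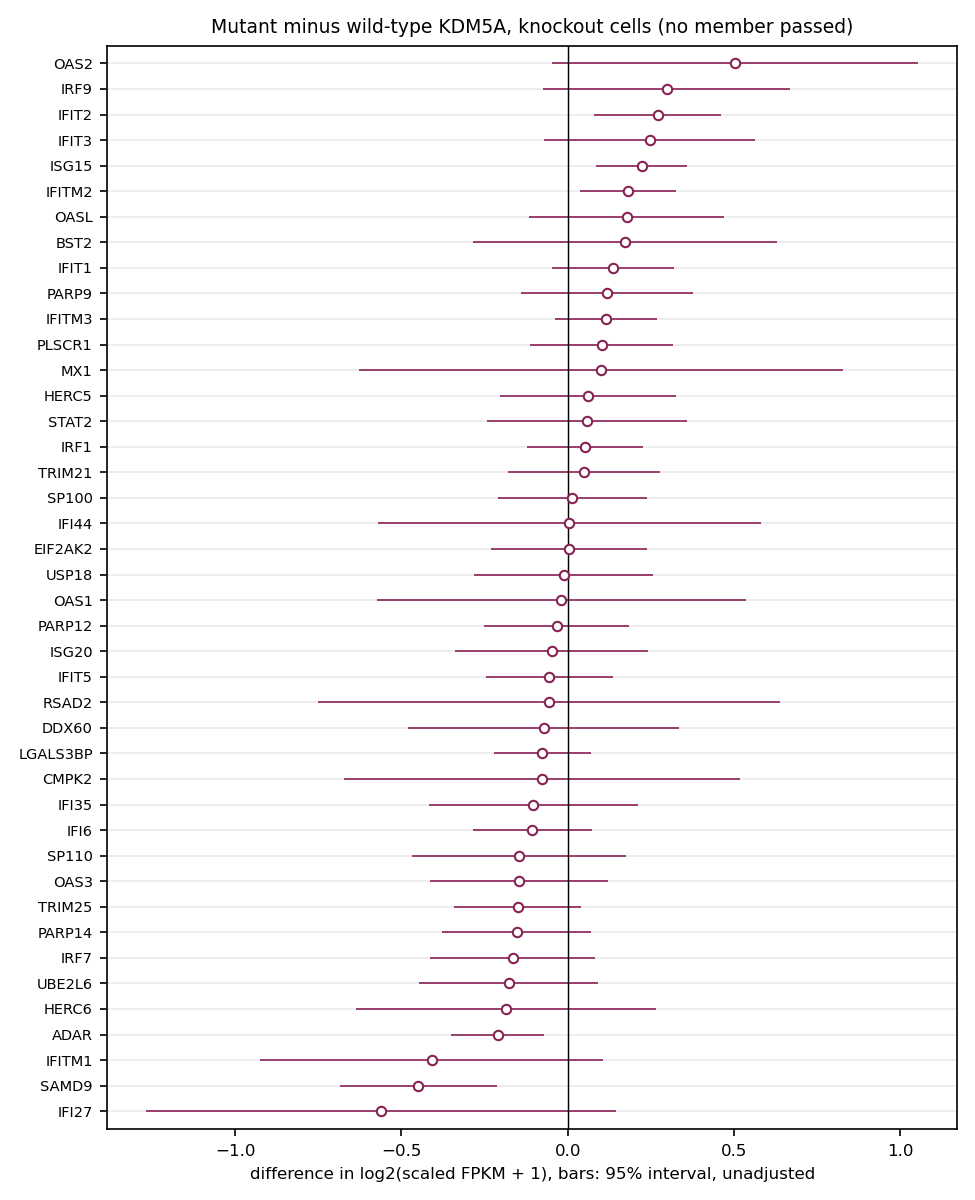
Mutant minus wild-type KDM5A in log2(scaled FPKM + 1) for the 42 tested members in knockout cells; bars are unadjusted 95% intervals and open points did not pass. Most bars cross 0, and those of IFIT2, ISG15, IFITM2, ADAR and SAMD9 do not.

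Between knockout and parental cells, both with empty vector, a few members differed, in both directions. Of the 42 tested members, 5 were higher and 3 lower in the knockout cells, where 8.94% of all genes passed, 4.84% higher and 4.09% lower. The median was 0.05 over the members and 0.00 over all genes, and the groups did not overlap in 12 members that were higher and 13 that were lower, where 21.9% and 20.6% of all genes were. The count of 8 was 5 without empty-vector knockout library 1 or 3, or without parental library 2, where 5.28%, 3.94% and 3.85% of all genes passed in that order, and 2 with ribosomal protein share as a covariate, where 0.54% did. Those 2 were SAMD9 and IFI35, and the others, IFIT2 and IFITM2 among them, lost their call there.

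SAMD9 was the largest of these differences. With 6.44 ± 0.129 (SD, n = 3) in knockout and 1.58 ± 0.205 (SD, n = 2) in parental cells it was 4.07 times as high (log2 fold change 1.53, SE 0.10, adjusted p = 0.000163), and it passed whichever library was left out and under the alternatives run. IFIT2 followed, at 10.6 ± 0.665 (SD, n = 3) in knockout and 6.11 ± 0.177 (SD, n = 2) in parental cells (log2 fold change 0.71, SE 0.08, adjusted p = 0.0022), and held whichever library was left out. IRF1 was at 34.6 ± 2.21 (SD, n = 3) in knockout and 25.1 ± 2.17 (SD, n = 2) in parental cells (log2 fold change 0.45, SE 0.08, adjusted p = 0.00986), a call lost without parental library 2 (adjusted p = 0.0641). IFI35 and OAS3 were higher too, by 0.57 (adjusted p = 0.0376) and 0.45 (adjusted p = 0.0487), and both calls were lost without 1 or another of most libraries, with an adjusted p up to 0.13 for IFI35 and 0.217 for OAS3. IFI35 had 17, 14.4 and 16.8 scaled FPKM in knockout and 8.76 and 12.5 in parental cells, which do not overlap.

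The 3 lower members were IFITM2, IFITM3 and LGALS3BP. IFITM2 averaged 172 ± 4.85 (SD, n = 3) in knockout and 232 ± 10.3 (SD, n = 2) in parental cells (log2 fold change -0.43, SE 0.06, adjusted p = 0.00556) and held whichever library was left out. IFITM3 averaged 521 ± 7.89 (SD, n = 3) in knockout and 679 ± 57.4 (SD, n = 2) in parental cells (log2 fold change -0.38, SE 0.07, adjusted p = 0.0116), and this call was lost without parental library 2 (adjusted p = 0.0563). LGALS3BP had 259.6, 281 and 275 in knockout and 348 and 323 in parental cells (log2 fold change -0.30, SE 0.06, adjusted p = 0.0231), lost without empty-vector knockout library 1 or 3 or parental library 1 (adjusted p up to 0.0731). In each of the 3, no knockout library reached a parental one. The largest differences that did not pass were those of IFITM1 (log2 fold change -0.81, SE 0.23, adjusted p = 0.0612), ISG20 (0.42, adjusted p = 0.0774), RSAD2 (0.42, adjusted p = 0.438) and OASL (0.38, adjusted p = 0.104). Among the regulators, STAT2 (-0.27), IRF7 (-0.37, adjusted p = 0.0736) and IRF9 (-0.20) did not pass. Parental library 2 is the one of higher ribosomal protein share.

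**Figure D5:**
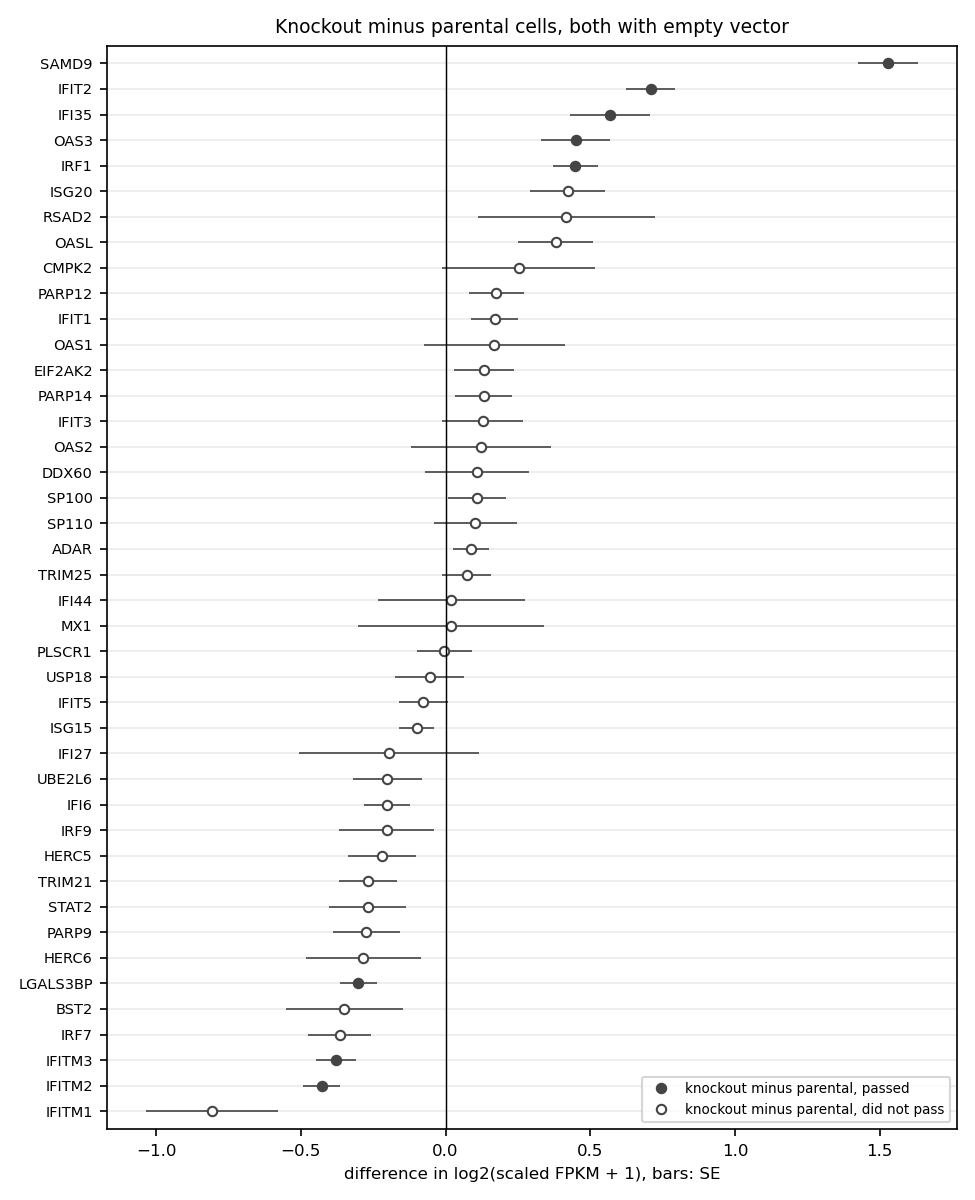
Knockout minus parental cells, both with empty vector, in log2(scaled FPKM + 1) for the 42 tested members; bars are SE and filled points passed at an adjusted p under 0.05. SAMD9 stands alone at 1.53, 4 other filled points lie right of 0 and 3 lie left of it.

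Upstream of these genes, 33 genes for interferons, receptors, kinases, factors and inhibitors were listed, and 25 were tested. Between the plasmids 0 passed by limma and 6 had an unadjusted p under 0.05. The share of all genes at that cut was not computed. STAT3, a factor activated mainly by cytokines of the interleukin-6 family, had 51.4 and 51.8 scaled FPKM with the mutant plasmid, 57.7, 52.7 and 57 with the wild-type plasmid, 40.7, 43.9 and 46.2 with empty vector and 50.6 and 48.7 in parental cells. It rose with the mutant (log2 fold change 0.24, SE 0.07, adjusted p = 0.0449) and with wild-type KDM5A (log2 fold change 0.35, SE 0.06, adjusted p = 0.0183). IFNAR2, a chain of the type I receptor, was lower in knockout cells, at 8.61, 10.4 and 6.83 against 16.8 and 16.2 in parental cells (log2 fold change -0.88, SE 0.15, adjusted p = 0.00921), and IRF2BP1, a corepressor of IRF2, fell with the mutant plasmid (log2 fold change -0.55, adjusted p = 0.00788).

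Interferon genes themselves were near or at the floor. IFNE, IFNG, IFNA2 and IFNW1 are listed at 0 in all 10 libraries, and IFNB1 did not exceed 0.370 scaled FPKM. The type III gene IFNL1 had 2.23 and 2.8 with the mutant plasmid, 1.18, 1.65 and 0.93 with the wild-type plasmid, 1.5, 0.477 and 0.963 with empty vector and 0.701 and 0.477 in parental cells, and lay just outside the threshold for the mutant (log2 fold change 0.85, SE 0.26, adjusted p = 0.0518). Its mutant libraries lay above all others. IFNL2 and IFNL3, near-identical copies whose reads may be split, reached 1.75 and 1.70 at most.

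A further 42 interferon-induced genes outside the set were listed, and 30 were tested. With the mutant plasmid 7 were higher and 1 lower, with the wild-type plasmid 5 were higher and 0 lower, and between knockout and parental cells 1 was higher and 3 lower. Of all genes, 9.48% were higher and 7.05% lower with the mutant plasmid, 2.52% higher and 2.02% lower with the wild-type plasmid, and 4.84% higher and 4.09% lower in knockout against parental cells. Between the plasmids 0 passed by limma and 6 had an unadjusted p under 0.05, again without a share of all genes. The medians of these further genes were 0.22 with the mutant and 0.17 with the wild-type plasmid. LAP3, an aminopeptidase, had 74.8 and 70.7 scaled FPKM with the mutant plasmid, 66.3, 72.6 and 69.1 with wild-type KDM5A and 53.8, 52.6 and 52.8 with empty vector (log2 fold change 0.45, SE 0.06, adjusted p = 0.0031 with mutant and log2 fold change 0.38, SE 0.05, adjusted p = 0.00638 with wild-type KDM5A), with no overlap. TRIM14, an adaptor of the antiviral sensor pathway at mitochondria, passed with both plasmids (0.35 with mutant and 0.49 with wild-type KDM5A), as did ZNFX1, a helicase that senses viral RNA (0.37 and 0.45 in that order). LY6E, a surface protein that limits the entry of coronaviruses, passed with the mutant plasmid (0.33, adjusted p = 0.00509), and DTX3L and BATF2 with the wild-type plasmid (0.44 for DTX3L and 0.63 for BATF2). SLFN5 went the other way with the mutant plasmid, at 16.5 and 15.2 against 19.6, 23 and 22.4 with empty vector (log2 fold change -0.43, SE 0.09, adjusted p = 0.0183), and was higher in knockout than in parental cells (0.54, adjusted p = 0.0105). SAT1, which acetylates polyamines, was the clearest fall in knockout cells, at 392, 354 and 363 against 506 and 578 in parental cells (log2 fold change -0.55, SE 0.07, adjusted p = 0.00247), and was higher with the mutant plasmid than with empty vector (0.38, adjusted p = 0.00978). TRIM5, which targets retroviral capsids, and LY6E were lower in knockout cells too (-0.42 for TRIM5 and -0.18 for LY6E).

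The cells carried the epithelial markers of their label, although VIL1 did not exceed 0.445 scaled FPKM. Summed over 7 epithelial markers, the level was 5866 and 5329.6 with the mutant plasmid, 4579.9, 4840.1 and 4763 with the wild-type plasmid, 4382, 4337.5 and 4394 in empty-vector knockout cells and 4071.5 and 4664 in parental cells. The mutant libraries lay highest, and with the mutant plasmid 4 epithelial markers passed higher than with empty vector, the keratins KRT8 (0.40, adjusted p = 0.00881), KRT19 (0.35, adjusted p = 0.0142) and KRT18 (0.36, adjusted p = 0.0214) and the adhesion protein EPCAM (0.31, adjusted p = 0.0401). CDH1 (-0.02, adjusted p = 0.892) and CLDN7 (0.14, adjusted p = 0.0995) did not pass, and 9.48% of all genes were higher with the mutant plasmid. The values of the 4 markers that passed are near the median of 0.42 over the interferon-stimulated genes. The part of the epithelial markers in that median was not tested. No epithelial marker passed with the wild-type plasmid, where KRT19 came nearest (0.15, adjusted p = 0.246). Summed over 8 leukocyte markers, the level was 7.01 and 14.4 with the mutant plasmid, 8.55, 6.88 and 6.43 with the wild-type plasmid, 4.80, 5.15 and 3.82 in empty-vector knockout cells and 3.43 and 2.87 in parental cells. The sum was higher in every plasmid library than in every empty-vector library. Its part in the values of the interferon-stimulated genes was not tested. CD14 and ITGAM made up most of the sum, and ITGAM reached 6.81 in mutant library 2. ITGAM did not pass with the mutant (0.38, adjusted p = 0.524) or the wild-type plasmid (-0.02, adjusted p = 0.983). CD14, the coreceptor for lipopolysaccharide, was higher with the mutant (1.33, adjusted p = 0.00605) and the wild-type plasmid (1.11, adjusted p = 0.0143), while CD3E, MS4A1 and the pan-leukocyte PTPRC were at or near 0, PTPRC at 0.706 or less. Of the 6 fibroblast markers COL1A1 made up nearly all of the sum of 13.7 to 28.9 and was lower with the mutant plasmid (-0.70, adjusted p = 0.044), and the 4 endothelial markers summed to 0.466 to 1.42.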

How the data were processed

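RNA was measured in 10 libraries of 4 groups. The authors deposited 1 table per library of 60141 loci with a log2 FPKM value, per the file headers. Its linear values, 2 to the power of the value minus 1, sum to about 1000000 in each library. Per the submitters' processing notes, the tools were Cufflinks 2.2.1, STAR 2.7.1a, GATK 4.1.2 and Picard and the build was GRCh38, with no order given. The annotation release and strand setting are not given in the sources used here.

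Values were made linear, summed over loci of a symbol and divided by the median ratio to the geometric mean of the 13651 genes at 1 or more in every library. Genes at 1 or more in at least 2 libraries were tested (17779) with limma 3.58.1 in R 4.3.3 (lmFit, contrasts.fit, eBayes with a trend) on log2(value + 1), all libraries in 1 fit, 6 residual and 2.99 prior degrees of freedom, two-sided, with Benjamini-Hochberg adjustment per comparison and a threshold of 0.05. Intervals are unadjusted. Python 3.11.15, numpy 2.4.6, pandas 2.3.3 and matplotlib 3.10.9 were used. Locus overlaps are from GENCODE 29. Tested on simulated data with 17779 genes, the fit recovered 38%, 44%, 29% and 42% of genes changed by 0.5 and 82%, 78%, 81% and 84% of those changed by 1 in the comparisons of mutant with empty vector, wild-type with empty vector, mutant with wild-type and knockout with parental. The noise of the simulation was independent between genes. In each comparison 200 genes were changed, drawn from genes of higher mean level only. The rates therefore do not cover low members such as OAS1 and OAS2.

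The members and lists were chosen with earlier results of these data known. Named were up to 10 members that passed by smallest p, the 4 regulators, up to 4 that did not pass with the largest change, and up to 5 listed pathway genes that passed. The others named (the rest of each role group, the interferon genes, CXCL11, LIPA and the markers) were chosen after their values were seen. Some results on listed genes, with the counts of upstream genes that passed by direction, are not reported here.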

Additional observations from a re-analysis of the deposited data

How the results depend on the processing

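The median log2 fold change of all genes on the values as deposited was -0.30 (mutant plasmid) and -0.10 (wild-type plasmid) relative to empty vector, -0.20 between the plasmids and 0.08 between knockout and parental cells. The share of all genes that passed moved as well. For mutant KDM5A against empty vector it was 16.5% in the main fit. It was 37.1% on the values as deposited, 5.66% with no filter, 11.2% with array weights and 10.3% in a fit of those 2 groups alone. For wild-type KDM5A it was 4.54% in the main fit, 4.14% on the values as deposited and 1.5% with no filter. Between knockout and parental cells it was 8.94%, 2.81% with no filter and 2.61% with those 2 groups alone. For mutant KDM5A against empty vector, 22 members passed, against 10 on the values as deposited, 11 with no filter, 14 with array weights, 12 with a fit of those 2 groups alone and 1 with ribosomal protein share as a covariate, an alternative chosen after seeing the data, and 10 to 22 with a library left out. For wild-type KDM5A, 21 passed, against 12 on the values as deposited, 11 with no filter and 6 to 22 with a library left out. Array weights gave 27 and a fit of those 2 groups alone gave 24. Leaving out both mutant libraries with parental library 2 gave 24 as well. In those fits 11.8%, 9.5% and 9.51% of all genes passed in that order. Between mutant and wild-type KDM5A, 0 passed, against 3 on the values as deposited, all lower, 1 with no filter and 0 to 2 with a library left out. The 3 and the 2 are near the share of all genes, 8.37% and 5.46% in those fits. Between knockout and parental cells 8 passed, against 5 with no filter, 3 with a fit of those 2 groups alone, 2 with the ribosomal protein covariate and 5 to 9 with a library left out. Whichever library was left out, 7 of 22, 6 of 21 and 3 of 8 members kept their call, and no member that passed changed sign. With the mutant plasmid the log2 fold change of IFITM2 was -0.0787 on the values as deposited, that of IFITM3 was -0.0634 after quantile normalization and that of IFI35 was -0.11 with the ribosomal protein covariate. The cause was not tested.

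Replicate numbers gave no sign of pairing: deviations of same-numbered libraries correlated at -0.09 to 0.05. With the replicate number as a block, 9 members passed with the mutant plasmid, 7 with the wild-type plasmid, 0 between the plasmids and 4 between knockout and parental cells. With this block 6.24%, 1.2%, 0.00562% and 3.13% of all genes passed in that order. Other pseudocounts, a filter at a mean of 5, quantile normalization and a correction for exonic length, added after seeing the data, kept each count within 1.5 times its value. No read counts were available, so no counting error could be given.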
